A study of Homo sapiens with 6 samples.

Results

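The genes that switch RAS and RAP on and off, together with the ERK cascade they feed, were followed in H1155 cells through 56 genes chosen by symbol among the 58735 genes of the count table. They comprised 5 RAS family GTPases, 4 RAP family GTPases, 7 RAS exchange factors, 7 RAP exchange factors, 9 RAS GAPs, 6 RAP GAPs, 7 RAF-MEK-ERK kinases and KSR scaffolds, 9 feedback inhibitors and 2 RASSF effectors. Counted by role, 30 act as activators of the pathway, 24 as inhibitors and 2 as other effectors. The list is a selection, and other genes of the pathway were not among its members.

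H1155 is a neuroendocrine large cell lung cancer line, grown here in DMEM with 10% FBS and left untreated. RNA from 3 libraries labelled WT (unedited cells) was compared with RNA from 3 libraries labelled GFI1-KO, in which CRISPR/Cas9 with paired guides had been aimed at the promoter of GFI1, a zinc finger transcription factor of blood development. The knockout cells were sorted by GFP as monoclonal clones, so that a difference between the groups cannot be told apart from a difference between a clone and the parental line. The sources used here do not state how many clones entered the libraries or whether the replicates were separate cultures, and the p-values measure only the spread between these libraries.

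RAS and RAP proteins are small GTPases that signal while bound to GTP. Exchange factors load them with GTP, and GTPase-activating proteins (GAPs) speed up GTP hydrolysis and return them to the inactive state. RAS activates RAF kinases, which phosphorylate MEK, which in turn phosphorylates ERK, while RAP1 also acts on integrins and cell junctions and can reach ERK through B-RAF. Active ERK induces its own inhibitors, among them the Sprouty and SPRED proteins and the dual-specificity phosphatases. The study asked how GFI1 influences ERK activity in detached cells and turned to RASGRP2, an exchange factor for RAP1.

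Library totals lay between 14882914 and 17692882 counts, and the 6 libraries gave 17514 genes enough counts to be tested. GFI1 itself had 157, 117 and 131 normalized counts in the WT libraries and 166, 178 and 160.0 in the GFI1-KO libraries. No GFI1-KO library was thus lower than a WT library, a log2 fold change of 0.31 (SE 0.12, adjusted p = 0.0273, edgeR), while correcting genes for GC content and length turned the value to -0.29 (adjusted p = 0.0493, edgeR), with an adjusted p of 0.0576 when the replicate number was added as a block. With DESeq2 the adjusted p of GFI1 was 0.128. The counts of the edited gene do not check the labels, and the directions given here rest on the labels. The study also probed GFI1 protein by immunoblot in H1155 cells with and without the edit, which RNA counts do not measure. The uncorrected call was lost without WT replicate 2 or 3 or GFI1-KO replicate 2, with adjusted p of 0.147, 0.0633 and 0.0927 in edgeR. Counts per gene carry no position of the reads along GFI1. Normalized counts are the deposited counts scaled by edgeR's TMM factors. Fold changes are GFI1-KO relative to WT on the log2 scale with their standard error (SE). They come from the quasi-likelihood test of edgeR, adjusted over all 17514 genes by the Benjamini-Hochberg method and called at an adjusted p of at most 0.05. Where 2 values follow each other for both fits, the first is uncorrected and the second GC corrected. A value is uncertain where a gene shares over 10% of the 50-base words of its transcripts with other genes, and this share is given beside it. FPKM, the count scaled to gene length and library total, is used where levels of different genes are set beside each other, and FPKM values and their sums carry no GC correction. In such bulk samples, a lower share of cells with a transcript and less of it per cell cannot be told apart.

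Of the 56 members, 51 had enough counts for the test, 19 were higher in the GFI1-KO libraries, 25 were lower and 7 were not called. Calls were common in this comparison, since 72.4% of all tested genes passed, 36.5% higher and 35.9% lower. DESeq2 called 18 of the members higher and 24 lower, against 31.9% and 31.4% of the same genes (63.3% in all). The median log2 fold change of the tested members in edgeR was -0.18. For 47 of the 51 the groups did not overlap, against 74.5% of all tested genes. The tested activators gave 9 higher and 15 lower of 28, with a median of -0.36, and the tested inhibitors 9 higher and 9 lower of 21, with a median of -0.085. As shares of those tested, the activators gave 32.1% higher and 53.6% lower and the inhibitors 42.9% in each direction, counts over few genes that carry no test of their own. An absolute log2 fold change of at least 1 was reached by 7 members, the 5 lower ones KSR2, RAPGEF5, SPRY1, RAPGEF4 and RASGRF2 and the 2 higher ones SIPA1 and RAPGEF3, while 17.5% of all tested genes were called with a change of that size.

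The GC content of the transcripts went along with the fold change. Among the 51 tested members, the Spearman correlation between GC content and log2 fold change was 0.691, and among 17299 tested genes with a GC value it was 0.577, a description across genes of the same 6 libraries. Of 18 members with more than 55% GC, 15 were higher and 1 lower. Of 17 members with less than 45% GC, none was higher and 13 were lower, and the 16 members in between gave 4 higher and 11 lower. After a correction that removes any trend with GC content and length, whether technical or real, the correlation among the members was 0.102, and 16 members were higher and 19 lower, against 33% and 27.9% of all tested genes (61% in all). The call was kept in the same direction by 26 members (11 higher and 15 lower), lost by 13 and turned around in 5, and 4 members gained a call. Of all called genes, 61.4% kept the call and 9.84% turned. The part of GC content in the results was not tested further, and the corrected value is given beside each member described.

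**Figure D1:**
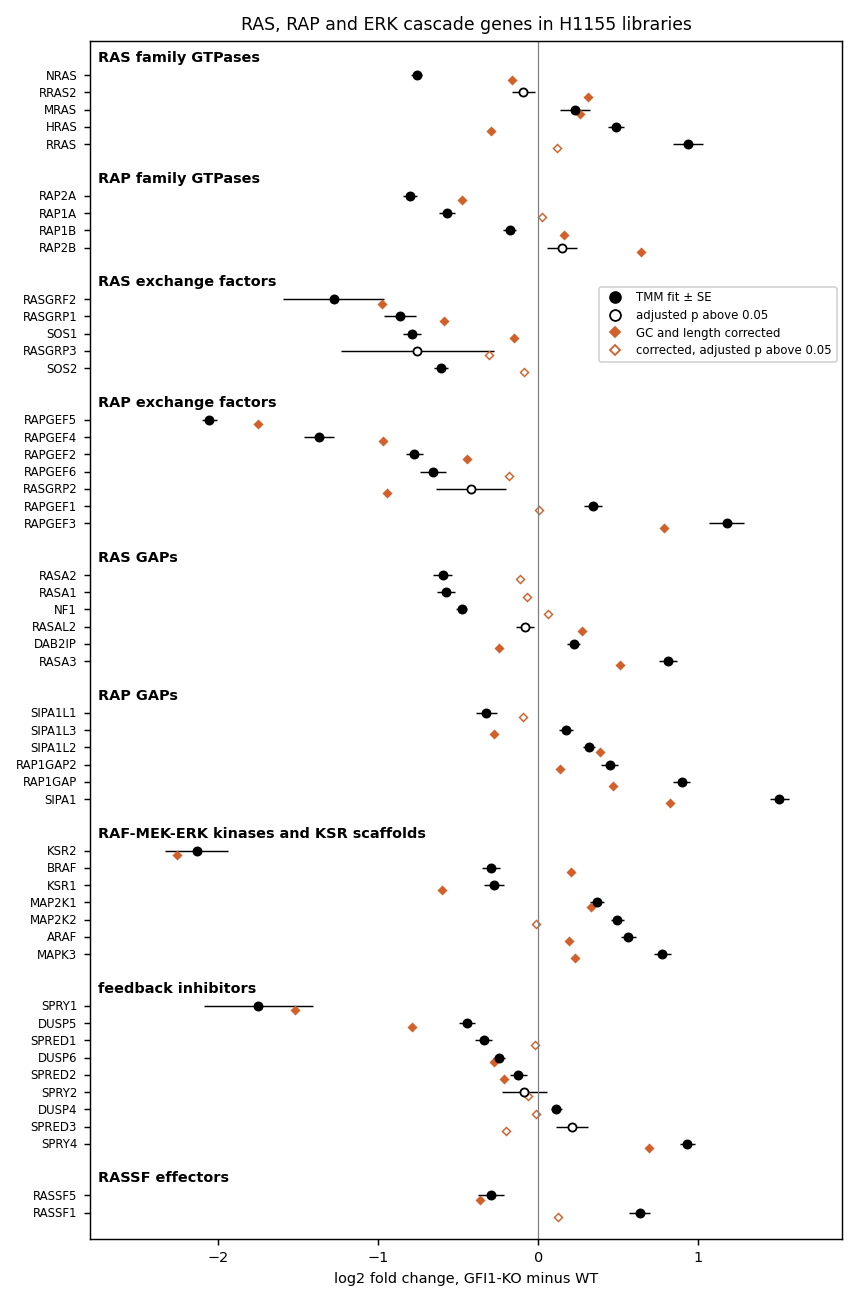
Log2 fold change (GFI1-KO relative to WT, horizontal axis) of the 51 tested members, ordered within each class. Black circles with bars show the TMM fit and its standard error, orange diamonds the fit corrected for GC content and length, and open symbols an adjusted p above 0.05. RAPGEF5 and KSR2 lie farthest to the left in both fits and SIPA1 farthest to the right. HRAS, RAP1B, DAB2IP, SIPA1L3 and BRAF change sides with a call in both fits, and other members change sides without a call in both.

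**Figure D2:**
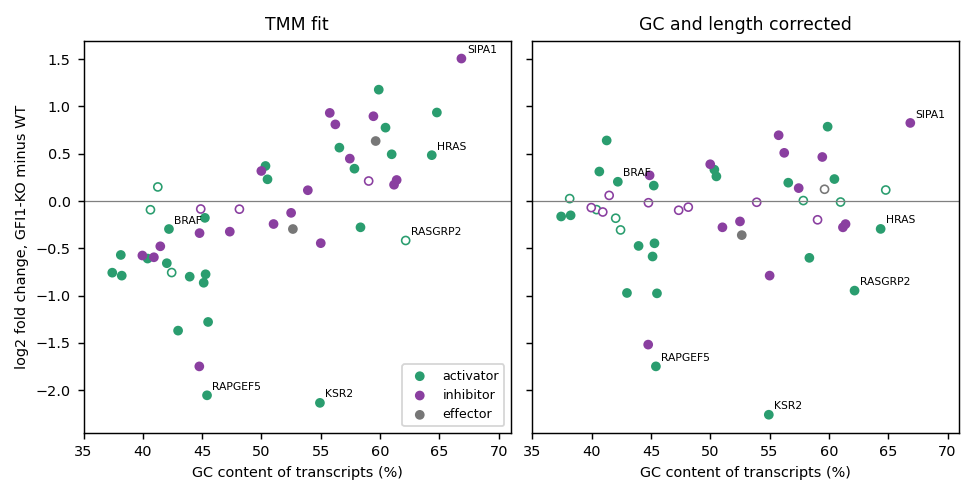
GC content of the transcripts (percent, horizontal axis) and log2 fold change (vertical axis) of the 51 tested members, before correction on the left and after correction on the right. Each point is a gene, coloured by role, and open points have an adjusted p above 0.05. The points rise with GC content on the left (Spearman correlation 0.691) and show little trend on the right (0.102), where KSR2 and RAPGEF5 stay lowest and SIPA1 highest.

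Of the 5 RAS family GTPases, 3 were higher and 1 lower, and 2 were higher and 2 lower after the GC correction. Such class counts, here and below, are over few genes and carry no test. Over all tested genes, 72.4% were called, and 61% after the correction. NRAS (ENSG00000213281, chr1:114704469-114716894, minus strand, GRCh38), the most abundant of them over the 6 libraries by FPKM, had 3662, 3797 and 3651 normalized counts in the WT libraries and 2187, 2192 and 2193 in the GFI1-KO libraries. The groups lay far apart, and NRAS fell with a log2 fold change of -0.76 (SE 0.035, adjusted p = 1.8e-16, edgeR), or -0.16 (adjusted p = 2.6e-04, edgeR) after the GC correction. HRAS (ENSG00000174775, chr11:532242-537287, minus strand), its close relative, had 877, 882 and 887 normalized counts in the WT libraries and 1278, 1237 and 1189 in the GFI1-KO libraries. All libraries labelled GFI1-KO were above all labelled WT, a log2 fold change of 0.48 (SE 0.050, adjusted p = 1.9e-09, edgeR), but the sign turned with the GC correction, to -0.29 (adjusted p = 2.4e-05, edgeR), so that no direction holds for HRAS across both fits. The transcripts of HRAS hold 64.4% GC and those of NRAS 37.4%. Of the summed FPKM of this class, NRAS made up 51.2% ± 0.379 in WT and 30.6% ± 0.234 in GFI1-KO (SD, n = 3), and HRAS 29.3% ± 0.467 in WT and 41.3% ± 1.53 in GFI1-KO. The sum of the class was nearly the same, 98.7 ± 1.63 FPKM in WT and 96.7 ± 0.677 FPKM in GFI1-KO. These shares and sums carry no GC correction. In the corrected fit both genes fell, NRAS by 0.16 and HRAS by 0.29 on the log2 scale, so that the change in shares holds for the uncorrected values only.

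Among the RAS-related members, RRAS, a regulator of integrin adhesion, had 166, 183 and 182 normalized counts in the WT libraries and 318, 327 and 368 in the GFI1-KO libraries. The groups did not overlap (log2 fold change 0.94, SE 0.094, adjusted p = 1.5e-09, edgeR), and the corrected value was 0.12 (adjusted p = 0.297, edgeR). MRAS, which acts with SHOC2 on RAF, was called slightly higher in both fits, with a log2 fold change of 0.23 (SE 0.094, adjusted p = 0.0312, edgeR) and 0.26 (adjusted p = 0.0172, edgeR). Its first call was lost without WT replicate 1 (log2 fold change 0.18, adjusted p = 0.126), without GFI1-KO replicate 2 (log2 fold change 0.21, adjusted p = 0.0795) or without GFI1-KO replicate 3 (log2 fold change 0.22, adjusted p = 0.0726), each in edgeR. RRAS2 was not called (log2 fold change -0.092, SE 0.070, adjusted p = 0.242, edgeR) and its groups overlapped, whereas the corrected fit placed it higher, at 0.31 (adjusted p = 3.8e-04, edgeR).

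The RAP GTPases gave 3 members lower and none higher of 4 tested, and 1 lower and 2 higher after the GC correction. RAP2A, the most abundant of them by FPKM over the 6 libraries, had 1973, 1879.5 and 1907 normalized counts in the WT libraries and 1147, 1073 and 1089.9 in the GFI1-KO libraries. It fell in both fits, by 0.80 (SE 0.044, adjusted p = 7.6e-15, edgeR) and by 0.47 (adjusted p = 4.6e-10, edgeR) on the log2 scale. RAP2A had the higher mean in WT (20.9 ± 0.514 FPKM in WT and 11.9 ± 0.413 FPKM in GFI1-KO) and RAP1A in GFI1-KO (19.6 ± 1.31 FPKM in WT and 13.03 ± 0.772 FPKM in GFI1-KO). RAP1A, which together with RAP1B forms the RAP1 pair that controls integrin activation, had 1834, 1646 and 1867 normalized counts in the WT libraries and 1263, 1219.7 and 1122 in the GFI1-KO libraries. This gap, a log2 fold change of -0.57 (SE 0.051, adjusted p = 1.5e-10, edgeR), was not seen after the correction (log2 fold change 0.025, adjusted p = 0.668, edgeR). RAP1B had 2226, 2104 and 2092 normalized counts in the WT libraries and 1929.7, 1842 and 1906 in the GFI1-KO libraries, without overlap. Its log2 fold change of -0.18 (SE 0.040, adjusted p = 2.7e-04, edgeR) turned to 0.16 (adjusted p = 6.4e-04, edgeR). RAP2B was not called in the first fit (log2 fold change 0.15, SE 0.10, adjusted p = 0.167, edgeR), was called without GFI1-KO replicate 2 (log2 fold change 0.23, adjusted p = 0.048, edgeR), and was higher in the corrected fit (log2 fold change 0.64, adjusted p = 3.1e-06, edgeR). The summed level of the 4 genes was 50.2 ± 1.68 FPKM in WT and 33.9 ± 1.24 FPKM in GFI1-KO.

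No RAS exchange factor was higher, and 4 of the 5 tested were lower, of which 3 stayed lower after the GC correction. Over all tested genes, 35.9% were lower, and 27.9% after the correction, so that 5 genes say little about the class. SOS1 and SOS2, which growth factor receptors recruit through GRB2, carried most of the class by FPKM. SOS2 had 1724, 1692 and 1764 normalized counts in the WT libraries and 1123, 1087 and 1189.6 in the GFI1-KO libraries. The groups were clearly separate, with a log2 fold change of -0.61 (SE 0.045, adjusted p = 3.8e-12, edgeR) that shrank to -0.091 (adjusted p = 0.0663, edgeR). SOS1 fell in both fits, with log2 fold changes of -0.79 (SE 0.055, adjusted p = 9.5e-13, edgeR) and -0.15 (adjusted p = 0.0191, edgeR). RASGRF2, a calcium-responsive exchange factor of neurons, was low in all libraries, with 27.6, 52.02 and 29.4 normalized counts in the WT libraries and 15.2, 13.3 and 16.00 in the GFI1-KO libraries. The second WT library stood above the other two, and the groups were still separate, with a log2 fold change of -1.28 (SE 0.32, adjusted p = 7.7e-04, edgeR) and -0.98 (adjusted p = 0.0102, edgeR) after correction. Without that library its log2 fold change was -0.94, the smallest of the 6 fits that left out a library. RASGRP1, a diacylglycerol-responsive exchange factor best known from lymphocytes, had 275, 282 and 253 normalized counts in the WT libraries and 138, 147 and 160.0 in the GFI1-KO libraries. It fell by 0.86 (SE 0.10, adjusted p = 2.4e-08, edgeR) on the log2 scale, or by 0.59 (adjusted p = 2.1e-05, edgeR) after correction, although it shares 15.1% of its 50-base transcript words with other genes. RASGRP3, at 11.3 and 6.65 mean normalized counts and with 15.2% of its words shared, was not called, and RASGRF1 and RASGRP4 stayed at 7.17 normalized counts or fewer in every library and were not tested. The summed level of the class was 26.4 ± 0.364 FPKM in WT and 16.2 ± 0.599 FPKM in GFI1-KO.

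The RAP exchange factors gave 2 members higher and 4 lower of 7, and 1 higher and 4 lower after the GC correction. RAPGEF5 (ENSG00000136237, chr7:22118238-22357144, minus strand), also called MR-GEF, had 2791, 2675 and 2777 normalized counts in the WT libraries and 698, 607 and 680.5 in the GFI1-KO libraries. It fell to a level 4.15-fold lower, a log2 fold change of -2.05 (SE 0.048, adjusted p = 1.9e-22, edgeR), or -1.75 (adjusted p = 6.9e-20, edgeR) after the correction. RAPGEF4, also called EPAC2, an exchange factor that cyclic AMP opens and that serves hormone secretion, had 499.6, 419.5 and 439 normalized counts in the WT libraries and 187, 181 and 158 in the GFI1-KO libraries. It fell by 1.37 (SE 0.092, adjusted p = 5.1e-13, edgeR) on the log2 scale, and by 0.97 (adjusted p = 2.1e-09, edgeR) after correction. RAPGEF3, or EPAC1, the other cyclic AMP sensor, went the opposite way, with 152, 115 and 119 normalized counts in the WT libraries and 296, 289 and 288 in the GFI1-KO libraries. Its log2 fold change was 1.18 (SE 0.11, adjusted p = 2.4e-10, edgeR) and 0.79 (adjusted p = 1.1e-06, edgeR) after correction. The strand setting of the counting was not given, and 12.9% of the 50-base words of RAPGEF3 occur elsewhere, mainly in the opposite-strand gene RPAP3-DT, which had between 2 and 20 counts. In FPKM, RAPGEF4 had 3.85 ± 0.354 FPKM in WT and 1.48 ± 0.126 FPKM in GFI1-KO and RAPGEF3 had 0.645 ± 0.101 FPKM in WT and 1.45 ± 0.0215 FPKM in GFI1-KO (SD, n = 3).

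RASGRP2 (ENSG00000068831, chr11:64726911-64745456, minus strand), also known as CalDAG-GEFI, responds to calcium and is abundant in platelets. It had 51.2, 50.9 and 85.01 normalized counts in the WT libraries and 45.7, 45.5 and 48.9 in the GFI1-KO libraries. All WT libraries lay above all GFI1-KO libraries, but 2 of them by only a few counts, and the third WT library stood apart from the other two. The log2 fold change was -0.42 (SE 0.22, adjusted p = 0.0886, edgeR), and with DESeq2 the adjusted p was 0.257. An exact two-sided permutation test gave p = 0.1, and no smaller value is possible with 3 libraries a group. The call changed when either lower WT library was left out. Without WT replicate 1 the log2 fold change was -0.55 (adjusted p = 0.0437, edgeR) and without WT replicate 2 it was -0.55 (adjusted p = 0.0359, edgeR). Without WT replicate 3, the highest, it was -0.14 (adjusted p = 0.618, edgeR). With the GC correction it was called lower, at -0.95 (adjusted p = 7.8e-04, edgeR). In FPKM RASGRP2 had 0.622 ± 0.196 FPKM in WT and 0.461 ± 0.0193 FPKM in GFI1-KO (SD, n = 3), and of the tested exchange factors RASGRF2 and RASGRP3 had less in both groups. It made up 1.76% ± 0.557 in WT and 2.31% ± 0.167 in GFI1-KO of the summed FPKM of the RAP exchange factors. From its RNA-Seq the study reported a fall of RASGRP2 in the GFI1-deleted H1155 cells. The reported fall was larger than the 1.34-fold found here, or the 1.93-fold after the GC correction. The study also reported less active RAP1 in these cells by pulldown, which RNA counts do not measure.

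The other members of this class were RAPGEF2, which is expressed in neurons and links cyclic AMP to ERK, RAPGEF1, which adaptors of the CRK family bring to the membrane, and RAPGEF6. RAPGEF2 had 1117, 1204 and 1184 normalized counts in the WT libraries and 683, 703 and 663 in the GFI1-KO libraries and fell in both fits, with log2 fold changes of -0.77 (SE 0.054, adjusted p = 9.0e-13, edgeR) and -0.45 (adjusted p = 7.8e-08, edgeR). RAPGEF1 was called higher in the first fit only (log2 fold change 0.34, SE 0.058, adjusted p = 8.4e-06, edgeR, and 0.0046, adjusted p = 0.951, edgeR). RAPGEF6 was called lower in the first fit only (log2 fold change -0.66, SE 0.084, adjusted p = 9.2e-08, edgeR, and -0.18, adjusted p = 0.0569, edgeR), but 53.3% of its 50-base words are found in further genes, among them a read-through gene on the same strand that had 0 counts in every library. Together, the 7 genes summed to 35.4 ± 0.465 FPKM in WT and 19.99 ± 0.734 FPKM in GFI1-KO, a ratio of 0.564. RAPGEF5 made up 45.95% ± 0.653 in WT and 19.4% ± 1.32 in GFI1-KO of that sum, and RAPGEF1 18.97% ± 0.993 in WT and 42.1% ± 1.19 in GFI1-KO, so that the leading RAP exchange factor differed between the groups. Without RAPGEF5 the sum was 19.1 ± 0.264 FPKM in WT and 16.1 ± 0.672 FPKM in GFI1-KO.

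**Figure D3:**
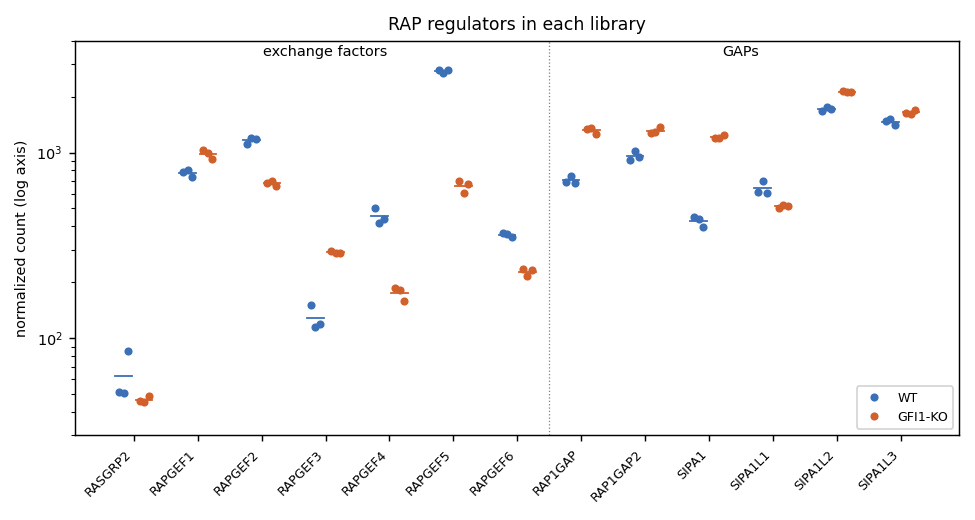
Normalized count (log axis) of the 7 RAP exchange factors and 6 RAP GAPs in each of the 3 WT libraries (blue) and 3 GFI1-KO libraries (orange), with a short line at each group's mean. RAPGEF5 drops from 2748 to 662 on average and SIPA1 climbs from 427 to 1212. The RASGRP2 points of both groups nearly touch, except that of WT replicate 3, which lies higher.

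The promoter of RASGRP2 is shown because the study cloned it into a reporter, and those of RAPGEF5, KSR2 and SIPA1 because KSR2 and RAPGEF5 had the largest falls and SIPA1 the largest rise among the members. The stretches were taken from the 250 bases before a RefSeq transcription start (GRCh38.p14) and shortened where an exon of GENCODE release 44 or the gene start of the deposited table fell inside, so that those of RASGRP2 and SIPA1 end before the RefSeq start. RAPGEF5 and SIPA1 have 2 RefSeq starts each, and the 250 bases before the other one, which begin inside an annotated exon of the same gene, are not shown. The RAPGEF5 stretch lies within the gene as the deposited table bounds it (chr7:22118238-22357144, minus strand). All are written 5′ to 3′ on the strand of the gene. Capitals mark AATC on either strand, the core of the GFI1 binding motif, which reads GATT where it lies on the other strand. RASGRP2 is shown for chr11:64745457-64745598, minus strand, RAPGEF5 for chr7:22194811-22195060, minus strand, KSR2 for chr12:117968991-117969240, minus strand and SIPA1 for chr11:65637851-65638096, plus strand.
RASGRP2: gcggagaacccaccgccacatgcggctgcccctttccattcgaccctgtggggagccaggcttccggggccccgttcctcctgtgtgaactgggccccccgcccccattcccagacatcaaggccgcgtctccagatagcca
RAPGEF5: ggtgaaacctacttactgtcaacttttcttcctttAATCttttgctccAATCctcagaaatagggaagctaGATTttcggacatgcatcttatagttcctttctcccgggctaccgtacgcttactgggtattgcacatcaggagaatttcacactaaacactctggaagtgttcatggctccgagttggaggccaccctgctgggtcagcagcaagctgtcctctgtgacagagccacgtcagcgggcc
KSR2: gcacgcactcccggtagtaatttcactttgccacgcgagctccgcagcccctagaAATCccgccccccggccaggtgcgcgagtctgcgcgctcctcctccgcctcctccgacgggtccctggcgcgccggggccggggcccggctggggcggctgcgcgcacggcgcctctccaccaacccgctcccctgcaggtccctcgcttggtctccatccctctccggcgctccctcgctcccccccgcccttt
SIPA1: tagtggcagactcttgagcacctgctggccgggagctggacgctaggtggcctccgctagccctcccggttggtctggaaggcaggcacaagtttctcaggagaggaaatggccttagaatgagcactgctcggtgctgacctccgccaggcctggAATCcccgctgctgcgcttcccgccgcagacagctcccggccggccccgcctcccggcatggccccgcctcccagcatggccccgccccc
The printed RASGRP2 stretch holds no AATC (the whole 250 bases hold 1), that of RAPGEF5 holds 3, and those of KSR2 and SIPA1 hold 1 each. The 250 bases before the other start of RAPGEF5 hold 0 such matches, and so do those of SIPA1. The study tested a GFI1 motif of RASGRP2 in an enhancer farther upstream, which the stretch shown does not reach. In A549 cells it reported transfected GFI1 at both the promoter and this enhancer.

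The study's reporter primers for the RASGRP2 promoter place these letters in a larger fragment. They match chr11:64746176-64746195 (forward, minus strand) and chr11:64745394-64745415 (reverse, plus strand) and span 802 bases, chr11:64745394-64746195, which cover 205 of the 250 bases upstream of the RefSeq start.
RASGRP2_Promoter_F: ccagtgccgtgtccatacta
RASGRP2_Promoter_R: gggctaggacaagatgggaata
Of the 56 members, 48 were found in the RefSeq promoter table, at 88 start sites. AATC on either strand occurred within the 250 bases upstream of 42 of these starts (47.7%) and of 64.8% of all 35116 starts. The longer TAAATCA, which contains AATC, occurred at 2 member starts (2.27%) and at 2.59% of all. The median GC content of the upstream 250 bases was 61.4% at member starts and 58% at all starts. It was 68% at the 32 starts of members that were higher and 60.8% at the 37 starts of members that were lower. A match is a description of these letters and not a binding site.

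The RAS GAPs gave 2 members higher and 3 lower of 6 tested, and 2 higher and 1 lower after the GC correction. Among all tested genes, 36.5% were higher and 35.9% lower, and 33% and 27.9% after the correction, so that 6 genes say little about the class. RASA3, which also acts on RAP1, had 527, 534 and 537 normalized counts in the WT libraries and 937, 933 and 933 in the GFI1-KO libraries. It rose in both fits, with log2 fold changes of 0.81 (SE 0.056, adjusted p = 8.4e-13, edgeR) and 0.51 (adjusted p = 1.7e-08, edgeR). NF1, or neurofibromin, a large tumor suppressor GAP, had 4694, 5041 and 4855 normalized counts in the WT libraries and 3574, 3375 and 3521 in the GFI1-KO libraries. The groups did not overlap (log2 fold change -0.48, SE 0.036, adjusted p = 3.7e-12, edgeR), but the corrected value was 0.059 (adjusted p = 0.131, edgeR). RASA1 (-0.58) and RASA2 (-0.59) were likewise called lower on the log2 scale in the first fit and not in the corrected one (-0.070 and -0.12), and RASA1 shares 11.6% of its 50-base words with other genes. DAB2IP, a scaffold with a RAS GAP domain and the most abundant gene of the class, had 2144, 2186 and 1978 normalized counts in the WT libraries and 2500.5, 2438 and 2419 in the GFI1-KO libraries. Its log2 fold change of 0.22 (SE 0.040, adjusted p = 2.1e-05, edgeR) turned to -0.24 (adjusted p = 3.2e-06, edgeR). RASAL2 was not called (log2 fold change -0.085, SE 0.057, adjusted p = 0.182, edgeR) and was higher after correction (log2 fold change 0.27, adjusted p = 1.2e-04, edgeR). RASA4, RASAL1 and RASAL3 stayed at 10.5 normalized counts or fewer in every library and were not tested, and RASA4 shares 75.6% of its words, mainly with its near copy RASA4B. The summed level of the RAS GAPs was 55.8 ± 0.923 FPKM in WT and 52.3 ± 0.756 FPKM in GFI1-KO.

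The RAP GAPs gave 5 members higher and 1 lower of 6, and 4 higher and 1 lower after the GC correction. Over all tested genes, 36.5% were higher, and 33% after the correction, so that 6 genes say little about the class. SIPA1 (ENSG00000213445, chr11:65638097-65650930, plus strand), also called SPA-1, a RAP GAP studied in metastasis, had 447, 436 and 397 normalized counts in the WT libraries and 1201, 1191 and 1244 in the GFI1-KO libraries. It rose 2.84-fold, a log2 fold change of 1.51 (SE 0.059, adjusted p = 8.1e-18, edgeR), and by 0.83 (adjusted p = 4.3e-12, edgeR) on the log2 scale after correction. Its transcripts hold 66.9% GC. RAP1GAP, a RAP1 GAP of neural and endocrine cells, had 696, 745 and 685 normalized counts in the WT libraries and 1345, 1351 and 1259 in the GFI1-KO libraries. It rose in both fits as well, with log2 fold changes of 0.90 (SE 0.053, adjusted p = 3.7e-14, edgeR) and 0.47 (adjusted p = 2.8e-08, edgeR). RAP1GAP2, which takes part in secretion, rose by 0.45 (SE 0.053, adjusted p = 2.4e-08, edgeR) and by 0.14 (adjusted p = 0.0206, edgeR) on the log2 scale. SIPA1L2, the most abundant RAP GAP over the 6 libraries, had 1665, 1751 and 1706 normalized counts in the WT libraries and 2134, 2119 and 2128 in the GFI1-KO libraries. The rise was modest and the groups were separate (log2 fold change 0.32, SE 0.039, adjusted p = 4.8e-08, edgeR, and 0.39, adjusted p = 1.9e-09, edgeR). SIPA1L3 had 1469, 1521 and 1414 normalized counts in the WT libraries and 1642, 1616 and 1703 in the GFI1-KO libraries. Its log2 fold change of 0.17 (SE 0.043, adjusted p = 9.2e-04, edgeR) turned to -0.28 (adjusted p = 1.3e-06, edgeR). SIPA1L1, or SPAR, a postsynaptic RAP GAP, was lower in the first fit (log2 fold change -0.32, SE 0.067, adjusted p = 1.2e-04, edgeR) and not called after correction (log2 fold change -0.10, adjusted p = 0.208, edgeR), with 19.4% of its 50-base words shared. The RAP GAPs summed to 46.1 ± 1.75 FPKM in WT and 68.5 ± 0.614 FPKM in GFI1-KO, a ratio of 1.49, so that the exchange factors of RAP had the lower sum and its GAPs the higher one in every GFI1-KO library. No test was made of these sums.

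**Figure D4:**
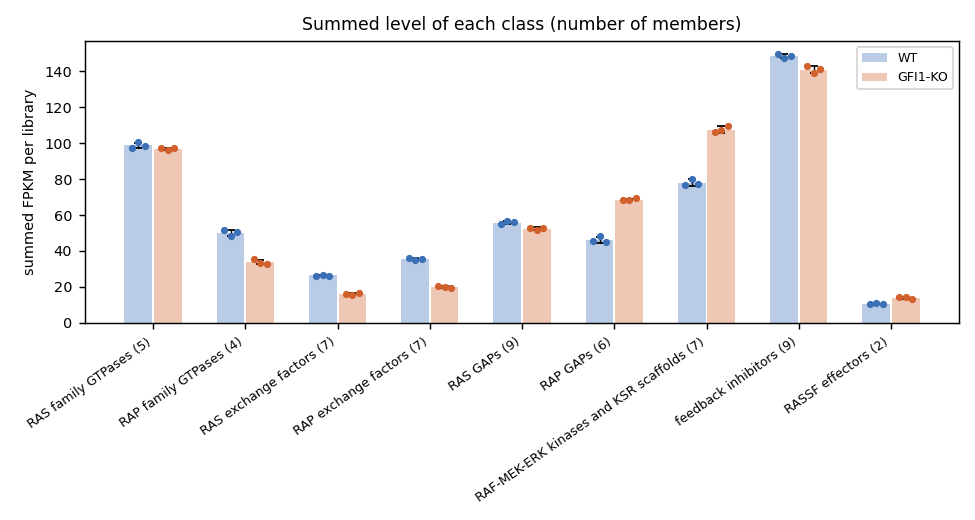
Summed FPKM per library (vertical axis) of the members of each class, in WT (blue) and GFI1-KO (orange). Bars are group means, black bars the SD over 3 libraries, and points single libraries. RAP exchange factors go from 35.4 to 19.99 FPKM and RAP GAPs from 46.1 to 68.5 FPKM, while the RAS family GTPases stay close to 96.7 FPKM.

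Of the 7 RAF-MEK-ERK kinases and KSR scaffolds, 4 were higher and 3 lower, and 4 were higher and 2 lower after the GC correction. KSR2 (ENSG00000171435, chr12:117453012-117968983, minus strand), a scaffold that holds RAF, MEK and ERK together and is largely restricted to neural and endocrine tissue, had 109.5, 136 and 109 normalized counts in the WT libraries and 20.96, 28.4 and 31.1 in the GFI1-KO libraries. It fell to a level 4.39-fold lower, a log2 fold change of -2.13 (SE 0.20, adjusted p = 3.2e-10, edgeR), or -2.26 (adjusted p = 5.5e-10, edgeR) after the correction. KSR1, its broadly expressed relative, fell as well, with log2 fold changes of -0.28 (SE 0.063, adjusted p = 3.3e-04, edgeR) and -0.60 (adjusted p = 7.2e-09, edgeR). In FPKM KSR1 was far above KSR2, with 3.23 ± 0.135 FPKM in WT and 2.63 ± 0.116 FPKM in GFI1-KO against 0.392 ± 0.0514 FPKM in WT and 0.0880 ± 0.0172 FPKM in GFI1-KO (SD, n = 3).

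Among the kinases themselves, BRAF, the RAF through which RAP1 can act, had 967, 1009.5 and 1021 normalized counts in the WT libraries and 813, 769.5 and 858 in the GFI1-KO libraries. The groups were separate, but the log2 fold change of -0.30 (SE 0.055, adjusted p = 2.9e-05, edgeR) turned to 0.20 (adjusted p = 0.00153, edgeR). The opposite-strand gene NDUFB2, with between 946 and 1849 counts, overlaps 5.97% of the exonic bases of BRAF, and the strand setting of the counting was not given. ARAF had 1161, 1297 and 1142 normalized counts in the WT libraries and 1746, 1742 and 1831 in the GFI1-KO libraries. It rose in both fits (log2 fold change 0.56, SE 0.048, adjusted p = 5.5e-11, edgeR, and 0.19, adjusted p = 6.7e-04, edgeR), and it was the most abundant member of the class. MAP2K1, which encodes MEK1, rose as well (log2 fold change 0.37, SE 0.044, adjusted p = 2.5e-08, edgeR, and 0.33, adjusted p = 2.4e-07, edgeR), with 19.1% of its 50-base words shared. MAP2K2, which encodes MEK2, was called higher in the first fit only (log2 fold change 0.49, SE 0.040, adjusted p = 2.1e-11, edgeR, and -0.011, adjusted p = 0.828, edgeR). MAPK3, which encodes ERK1, had 719.8, 824 and 730.5 normalized counts in the WT libraries and 1307, 1311 and 1271 in the GFI1-KO libraries. Its level rose in both fits, with log2 fold changes of 0.78 (SE 0.054, adjusted p = 1.1e-12, edgeR) and 0.23 (adjusted p = 3.9e-04, edgeR). The class summed to 77.8 ± 1.95 FPKM in WT and 108 ± 1.71 FPKM in GFI1-KO. RNA counts do not measure the phosphorylation of ERK.

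The feedback inhibitors of the ERK pathway gave 2 members higher and 5 lower of 9, and 1 higher and 4 lower after the GC correction. The shares over all tested genes were 36.5% higher and 35.9% lower, and 33% and 27.9% after the correction, so that 9 genes say little about the class. SPRY4, a Sprouty protein, had 1000.3, 951 and 1054 normalized counts in the WT libraries and 1874, 1922 and 1937 in the GFI1-KO libraries. It rose in both fits, with log2 fold changes of 0.93 (SE 0.046, adjusted p = 7.7e-16, edgeR) and 0.69 (adjusted p = 2.3e-12, edgeR). SPRY1 was low throughout, with 45.05, 37.6 and 23.1 normalized counts in the WT libraries and 9.53, 8.53 and 13.2 in the GFI1-KO libraries, and fell in both, with log2 fold changes of -1.75 (SE 0.34, adjusted p = 5.6e-05, edgeR) and -1.52 (adjusted p = 5.0e-04, edgeR). SPRY2 had overlapping groups and was not called (log2 fold change -0.086, SE 0.14, adjusted p = 0.588, edgeR, and -0.065, adjusted p = 0.704, edgeR).

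The dual-specificity phosphatases remove the activating phosphates of ERK. DUSP4, a nuclear form and the most abundant feedback inhibitor, had 5165, 5166 and 5275 normalized counts in the WT libraries and 5692, 5452 and 5745 in the GFI1-KO libraries. Its small difference, a log2 fold change of 0.11 (SE 0.033, adjusted p = 0.00307, edgeR), became -0.013 (adjusted p = 0.735, edgeR) after correction. DUSP5, another nuclear form, had 1559, 1564 and 1669.8 normalized counts in the WT libraries and 1232, 1188 and 1101 in the GFI1-KO libraries. It fell in both fits (log2 fold change -0.45, SE 0.048, adjusted p = 5.5e-09, edgeR, and -0.79, adjusted p = 9.7e-13, edgeR). DUSP6, the cytoplasmic phosphatase of ERK, fell by little in both (log2 fold change -0.24, SE 0.038, adjusted p = 2.3e-06, edgeR, and -0.28, adjusted p = 3.8e-07, edgeR), with 24.7% of its 50-base words shared with other genes. Of the SPRED proteins, which bring neurofibromin to RAS, SPRED2 was called slightly lower in both fits (log2 fold change -0.13, SE 0.053, adjusted p = 0.0379, edgeR, and -0.22, adjusted p = 8.2e-04, edgeR). The first of these calls was lost in 5 of the 6 fits that left out a library, all but the one without WT replicate 3 (lowest and highest adjusted p of the 5, 0.0566 and 0.14, edgeR), and with DESeq2 the adjusted p was 0.14. SPRED1 fell in the first fit only (log2 fold change -0.34, SE 0.054, adjusted p = 3.4e-06, edgeR, and -0.018, adjusted p = 0.782, edgeR). SPRED3 was not called (log2 fold change 0.21, SE 0.10, adjusted p = 0.0657, edgeR, and -0.20, adjusted p = 0.0854, edgeR), but was called higher without WT replicate 2 (log2 fold change 0.33, adjusted p = 0.0053, edgeR). The class summed to 148 ± 1.15 FPKM in WT and 141 ± 1.83 FPKM in GFI1-KO.

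Of the RASSF effectors, RASSF1, a tumor suppressor that binds RAS, had 440.2, 460.5 and 441 normalized counts in the WT libraries and 709, 717 and 655 in the GFI1-KO libraries. The groups did not overlap (log2 fold change 0.63, SE 0.064, adjusted p = 1.5e-09, edgeR), and the corrected value was 0.12 (adjusted p = 0.0896, edgeR), with 14.5% of its 50-base words shared. RASSF5, or NORE1, whose RAPL form is an effector of RAP1 at integrins, fell in both fits (log2 fold change -0.30, SE 0.080, adjusted p = 0.00188, edgeR, and -0.36, adjusted p = 3.5e-04, edgeR).

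Genes around the members were taken from lists. Of 16 adaptors and scaffolds upstream of RAS and ERK, 7 were higher and 8 lower, and 8 were higher and 5 lower after the GC correction. Of the first calls, 8 kept their direction, 2 were lost and 5 turned around. Over all tested genes, 72.4% were called before the correction and 61% after it. SHC1, an adaptor of growth factor receptors, had 746, 692 and 664 normalized counts in the WT libraries and 1845, 1949 and 1909.6 in the GFI1-KO libraries and rose in both fits (log2 fold change 1.44, SE 0.050, adjusted p = 6.3e-19, edgeR, and 1.11, adjusted p = 9.1e-16, edgeR). PEBP1, which binds and restrains RAF, rose as well (log2 fold change 0.81, SE 0.038, adjusted p = 2.9e-16, edgeR, and 0.58, adjusted p = 1.6e-12, edgeR). CNKSR2, a neuronal scaffold of RAF signaling, fell in both, with log2 fold changes of -1.25 (SE 0.077, adjusted p = 7.4e-14, edgeR) and -0.73 (adjusted p = 1.7e-08, edgeR).

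Of 15 genes that ERK signaling is known to induce, 8 were higher and 4 lower, and 6 were higher and 6 lower after the correction. Of the first calls, 9 kept their direction, 2 were lost and 1 turned around, and 2 genes gained a call. The immediate early genes EGR1 (log2 fold change 1.01, SE 0.055, adjusted p = 6.4e-15, edgeR, and 0.68, adjusted p = 5.5e-11, edgeR) and JUNB (log2 fold change 1.46, SE 0.041, adjusted p = 8.1e-21, edgeR, and 0.67, adjusted p = 8.2e-12, edgeR) rose in both fits. So did EGR2, with 50.2, 47.6 and 55.6 normalized counts in the WT libraries and 189.6, 204 and 247 in the GFI1-KO libraries, and FOSL1, with 9.21, 8.86 and 3.15 normalized counts in the WT libraries and 36.2, 35.1 and 44.2 in the GFI1-KO libraries. In contrast, ETV1 (log2 fold change -1.16, SE 0.040, adjusted p = 5.8e-19, edgeR, and -0.76, adjusted p = 2.2e-14, edgeR) and ETV5 (log2 fold change -0.30, SE 0.055, adjusted p = 2.8e-05, edgeR, and -0.31, adjusted p = 2.2e-05, edgeR), which commonly follow ERK activity, fell in both fits, while their relative ETV4 was higher in the first fit and lower in the second (log2 fold change 0.19, SE 0.065, adjusted p = 0.0134, edgeR, and -0.33, adjusted p = 8.7e-05, edgeR). The first call of ETV4 was lost without WT replicate 2 or GFI1-KO replicate 2, with adjusted p of 0.0589 and 0.0579 in edgeR. EPHA4 had 116, 143 and 124 normalized counts in the WT libraries and 4.76, 2.84 and 4.71 in the GFI1-KO libraries and was lower in both fits. The list thus held members that rose and members that fell, and it gives no single direction.

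Of 8 RAP1 effectors at integrins and junctions, APBB1IP had no count in any library, and of the other 7, 2 were higher and 5 lower, with 2 higher and 3 lower after correction. The genes called higher were not the same in both fits. KRIT1 (log2 fold change -0.26 and 0.33) and FERMT2 (-0.38 and 0.14) turned from lower to higher, and RADIL (0.57 and 0.042) lost its call. The first call of KRIT1 was lost without GFI1-KO replicate 1 or 3 (adjusted p = 0.12 and 0.0539, edgeR). RASIP1, which acts with RADIL to stabilize endothelial junctions, had 239.6, 195 and 207 normalized counts in the WT libraries and 142, 125 and 151 in the GFI1-KO libraries and fell in both fits (log2 fold change -0.62, SE 0.12, adjusted p = 3.0e-05, edgeR, and -1.32, adjusted p = 6.2e-10, edgeR). AFDN, or afadin, which ties RAP1 to adherens junctions, fell as well (log2 fold change -0.49, SE 0.033, adjusted p = 5.6e-13, edgeR, and -0.32, adjusted p = 2.8e-09, edgeR). TLN1, or talin, through which RAP1 activates integrins, was higher in the first fit and lower in the second (log2 fold change 0.21, SE 0.033, adjusted p = 3.1e-06, edgeR, and -0.080, adjusted p = 0.0307, edgeR).

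Markers of cell identity also differed between the groups. Among the neuroendocrine markers, SYP and NCAM1 rose in both fits (log2 fold change 1.21, SE 0.033, adjusted p = 3.0e-21, edgeR, and 0.82, adjusted p = 8.0e-17, edgeR for SYP, and 1.12, SE 0.034, adjusted p = 5.3e-20, edgeR, and 1.13, adjusted p = 4.2e-19, edgeR for NCAM1). CHGA, which encodes chromogranin A, was higher in the first fit only (log2 fold change 0.67, SE 0.062, adjusted p = 2.6e-10, edgeR, and 0.027, adjusted p = 0.711, edgeR). NEUROD1, a neuronal transcription factor, fell in both (log2 fold change -0.40, SE 0.033, adjusted p = 2.7e-11, edgeR, and -0.085, adjusted p = 0.0185, edgeR). INSM1, another transcription factor of neuroendocrine cells, had 6942, 7252 and 6726 normalized counts in the WT libraries and 6734, 6289 and 6713 in the GFI1-KO libraries, with overlap between the groups. Its log2 fold change was -0.084 (SE 0.036, adjusted p = 0.037, edgeR) in the first fit, and this call was lost without WT replicate 1 or 2 or GFI1-KO replicate 2 or 3, with adjusted p of 0.054, 0.129, 0.269 and 0.0547 in edgeR. The value was -0.77 (adjusted p = 7.7e-16, edgeR) after correction. The 4 leukocyte markers summed to between 3.15 and 6.14 normalized counts in WT and between 2.86 and 8.47 in GFI1-KO, with CD3E at 0. The 3 endothelial markers summed to between 445 and 502 in WT and between 219.9 and 248 in GFI1-KO, mostly PECAM1 (log2 fold change -1.12, SE 0.083, adjusted p = 3.5e-12, edgeR, and -0.93, adjusted p = 5.7e-10, edgeR), and the 3 fibroblast markers to between 252 and 263 in WT and between 94.1 and 108 in GFI1-KO, mostly PDGFRB (log2 fold change -3.24, SE 0.20, adjusted p = 8.7e-14, edgeR, and -3.55, adjusted p = 1.3e-13, edgeR) and COL1A1, with DCN at 0. The 4 epithelial markers summed to between 3385 and 3566 in WT and between 3987 and 4376 in GFI1-KO, mostly KRT8 and KRT18. Of these 4 genes, 1 was higher and 2 lower, and 1 was higher and 3 lower after the correction. KRT8 rose in both fits (log2 fold change 0.45 and 0.091). EPCAM (-2.23 and -2.09) and CDH1 (-2.31 and -2.26), both at low counts, fell in both fits, and KRT18 fell in the corrected fit only (-0.014 and -0.42). The part of these differences in the members' values was not tested.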

How the data were processed

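RNA-Seq counts of 6 H1155 libraries, 3 labelled WT and 3 labelled GFI1-KO, were analysed. Per the study's methods, poly-T beads were used to enrich mRNA for sequencing on a NovaSeq system, and Hisat2 (alignment to hg38) and featureCounts (counting) processed the reads, whereas the submitters' processing notes name Bowtie2 and HTSeq. The values deposited by the authors are raw counts per gene, without normalization, beside gene lengths and coordinates. The strand setting and the handling of reads with several matches are not given in the sources used here, and antisense or overlapping genes cannot be told apart where strand was ignored. From the counts, TMM-normalized counts and FPKM (with the deposited lengths) were computed.

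Genes were tested with edgeR 4.0.16 in R 4.3.3 (filterByExpr, quasi-likelihood F test, Benjamini-Hochberg adjustment over all tested genes, adjusted p of at most 0.05, no fold change minimum, no pairing). The standard error (SE) was obtained as the absolute log2 fold change over the root of the F statistic. Alternatives were DESeq2 1.42.0, limma-voom (limma 3.58.1), median-of-ratios factors, library size alone, no filter, at least 10 counts in every library, the replicate number as a block, an adjusted p of at most 0.01, each library left out in turn, and offsets for GC content and length from natural splines with 5 degrees of freedom per library, alone and with the block. GC content was taken from the transcripts of GENCODE release 44. These offsets also remove any real change that follows GC content. A value was held to be uncertain for a gene sharing over 10% of its 50-base transcript words with others.

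Members, roles and lists were chosen with earlier results of these data known. RASGRP2, members called with an absolute log2 fold change of at least 1, the most abundant member of each class and members that turned with the GC correction, 20 in all, were named by rule, and other genes after their values were seen. Intervals and floors of counts cover counting error only: 3 counts correspond to between 0.170 and 0.202 CPM. The fits with and without offsets were tested on simulated data, where a GC trend put into the counts gave many false calls without the offsets. That trend was counted as false by design, so the simulation does not show which fit is right for these libraries. A marker gene on the lists is not reported here. Tables and figures were made with Python 3.11.15, pandas 2.3.3, numpy 2.4.6, scipy 1.17.1 and matplotlib 3.10.9.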

Additional observations from a re-analysis of the deposited data

How the results depend on the processing

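Outside the GC correction, 277 of 279 values of the 20 named members under the alternatives kept their direction and side of the threshold, and none turned. The 2 exceptions were RASGRP2 without WT replicate 1 and without WT replicate 2, given with its values above. Most of the 20 were chosen for large changes or high levels in these same data, which makes stable calls likely. The stricter adjusted p reuses the fold changes of the main fit, so no direction could turn there. Among the other members, the calls of MRAS, RAP2B, SPRED2 and SPRED3 changed when a library was left out. The filter of at least 10 counts in every library gave no value for 1 named member, SPRY1. With the GC and length correction, alone and with the replicate block, the log2 fold change of HRAS was -0.29 and -0.29, of RAP1B 0.16 and 0.16, of DAB2IP -0.24 and -0.24, of SIPA1L3 -0.28 and -0.28, of BRAF 0.20 and 0.20 and of DUSP4 -0.013 and -0.013, each opposite in sign to the value without the correction, and for DUSP4 without a call. SOS2 and RASSF1 lost their calls (adjusted p = 0.0663 and 0.0896 in edgeR, and 0.0753 and 0.106 with the block), and RASGRP2 gained one (adjusted p = 7.8e-04 and 3.5e-04). The causes were not tested. With a library left out, between 12150 and 12499 genes were called over all genes, 18 to 20 members were higher and 24 to 25 lower, of which activators made up 8 to 9 and 15 to 16, and inhibitors 9 to 10 and 8 to 9. The same replicate numbers did not mark like libraries: deviations from the group means correlated with a mean r of 0.0122 in the 3 same-numbered pairs and -0.00611 in the 6 others. With the replicate number as a block, 12573 genes were called, against 12680 without it, and 19 members were higher and 25 lower, with no named member's call changed. No alternative moved the median log2 fold change of all genes past 0.0276 in size. Low counts limit RASGRP3 and the 5 untested members.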
